A study of Mus musculus with 12 samples.

Results

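The 39 genes described here encode the Rel and NF-kB transcription factors, the IkB proteins that bind them, the kinases and adaptors that carry Toll-like receptor (TLR), CD40 and tumour necrosis factor signals to them, and several of their transcriptional targets. They were taken as the gene spots of the array whose gene name equals a listed symbol, with the probe of highest mean over all arrays standing for a gene that has several. All 39 were found and passed the filter on dim probes, among 24958 genes tested and 34821 gene names on the array. The samples were B cells from the spleens of female Balb/c mice, either control mice or mice made allergic to house dust mite (HDM). All cells of all groups were cultured with a CD40 agonist for 2 days and received lipopolysaccharide (LPS), the TLR4 ligand, for the final 5 hours, so no group shows these genes without stimulation. An IL-10 secretion assay then marked the cells that released this cytokine, and flow cytometry separated these IL-10+ cells from the IL-10- cells. Each sort from each kind of mouse formed a group (IL-10+ and IL-10- from control mice, IL-10+ and IL-10- from HDM mice), which gave 4 groups of 3 one-colour arrays. Whether the 3 arrays of each group stand for different animals or cultures is not stated in the labels, so p-values measure only the spread between these samples, which may be technical. Only 1 strain and sex and 1 stimulation were studied.

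In resting B cells the NF-kB dimers are held in the cytoplasm by IkB proteins. LPS acts through TLR4, whose TIR-domain adaptors recruit IRAK kinases and TRAF6, and the IkB kinase complex then marks IkB for destruction so that dimers enter the nucleus. CD40 also signals through TRAF proteins, and by way of TRAF2 and TRAF3 it releases the NF-kB-inducing kinase Map3k14, which drives an alternative route through Chuk and the processing of the Nfkb2 product. Many of the genes that NF-kB then induces, such as Nfkbia and Tnfaip3, encode its inhibitors. In B cells this pathway supports survival, proliferation and cytokine production. Arrays measure transcripts, whereas much of this pathway is controlled through phosphorylation and degradation of proteins, which were not measured.

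Of the spots, 47.7% to 62.4% were well above background on each array. IL-10- HDM array 3 stood apart, with a mean correlation of 0.775 with the other arrays against 0.867 to 0.901, and with 73.0% of tested genes well above background against 78.6% on IL-10+ control array 2 and more on the rest. The median log2 level of the 39 genes, over the array's 75th percentile, was highest on the 3 arrays of lowest detection. It was 2.69 on IL-10- HDM array 3, 2.59 on IL-10+ control array 2 and 2.50 on IL-10- control array 2 (80.8% of tested genes). On the other arrays it was 1.47 to 2.22. The part of this in the differences below was not tested. The arrays lay on 2 slides, which were also scanned at different times. Slide 1 held both IL-10+ groups and IL-10- control arrays 1 and 2, and slide 2 held IL-10- control array 3 and the IL-10- HDM group. Sort and slide therefore cannot be told apart in HDM mice, and the 3 IL-10- control arrays alone set the slide term of a fit with slide as a block. Il10 itself was higher in IL-10+ cells by 7.59 on the log2 scale (limma, adjusted p = 0.00800), with no overlap between the sorts. Its probe was not well above background on IL-10- HDM array 3, at -5.43, and without that array the difference was 6.69 (adjusted p = 2.99e-05). With slide as a block it was 6.96 (adjusted p = 0.266). B cell markers were well above background on nearly every array, with a summed signal of 55.3 to 78.3 times the array's 75th percentile. That sum was led by Cd22, whose probe shares a run of 15 bases with probes of 15 other gene names. The summed signal of 5 antibody-secreting cell markers was 5.14 to 13.2 on IL-10+ arrays and 1.58 to 4.08 on IL-10- arrays. Igj had log2 group means of 1.97 (control) and 1.90 (HDM) in IL-10+ cells, against -4.49 and -5.32 in IL-10- cells. Prdm1, Xbp1 and Sdc1 did not share that difference. Prdm1 was at 1.28 and 1.35 against 1.10 and 0.96. Its probe shares a run of 15 bases with probes of 53 other gene names. Xbp1 was at -2.34 and -2.07 against -2.43 and -1.40, and Sdc1 at -5.21 and -4.63 against -3.56 and -4.11. Tnfrsf17 was above background on no array of 3 groups. The summed signal of 6 monocyte and macrophage markers was 372 to 508, higher than that of the B cell list and led by Itgam, whose probe shares a run of 15 bases with probes of 134 other gene names. In that list Csf1r was well above background on all 12 arrays, Emr1 and Cd14 on 9 each and Lyz2 on 5. The summed signal of 5 neutrophil markers was 151 to 212, led by Csf3r, whose probe shares such a run with 15 other gene names, while Ly6g was well above background on 3 arrays and S100a8 on 0. The summed signal of 5 dendritic cell markers was 58.8 to 93.5, as high as that of the B cell list. It was led by Siglech, whose probe shares such a run with 25 other gene names, while Itgax was well above background on no array. T cell marker sums were 1.87 to 3.93. The part of these lists in the differences below was not tested.

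Many of these genes are themselves NF-kB targets, and the promoters that carry the binding motif are shown here because the genes below were measured in cells stimulated through this factor. RefSeq promoter windows (GRCm38.p6, 250 bases before to 50 after a start site) were available for 32 of the 39 genes. The kappa B consensus, a motif of 10 bases searched on both strands and counted once per gene, was found in 12 of the 32 (37.5%), against 9.6% of the 27025 genes in the table. Windows gave 37.5% of 48 against 8.5% of 32851. The 12 were Bcl3, Irak1, Nfkb2, Nfkbia, Nfkbid, Nfkbie, Rel, Sod2, Tank, Tnfaip3, Tnip1 and Traf3. A match describes letters only and is no evidence of binding. The stretches below, all upstream of the start site and on the plus strand of the chromosome, have the match in capitals and belong to the 4 genes with a match that had the smallest p between the sorts. They lie at chr2:61592995-61593064 for Tank, chr17:45555564-45555633 for Nfkbie, chr17:13007726-13007795 for Sod2 and chr7:30422156-30422264 for Nfkbid, which has 2 places within the stretch. Windows at another start site of Tank hold a further match, which is not shown.
Tank: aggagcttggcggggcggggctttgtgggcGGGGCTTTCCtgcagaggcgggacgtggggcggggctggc
Nfkbie: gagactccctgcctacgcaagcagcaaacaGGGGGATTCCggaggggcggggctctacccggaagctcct
Sod2: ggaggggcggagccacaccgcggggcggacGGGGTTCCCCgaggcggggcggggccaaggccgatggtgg
Nfkbid: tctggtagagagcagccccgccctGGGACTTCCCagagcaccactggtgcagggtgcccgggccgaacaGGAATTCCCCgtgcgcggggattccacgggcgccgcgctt
In the sort contrast Tank was on the IL-10+ side and Nfkbie, Sod2 and Nfkbid were on the IL-10- side, so the genes carrying these matches did not share a direction.

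None of the 39 genes passed the test between any groups. In the sort contrast averaged over control and HDM mice, 0 of 39 were called by limma at a Benjamini-Hochberg adjusted p under 0.05, against 0.268% of all genes tested, and the smallest adjusted p was 0.202, for Ikbkb. At an unadjusted p under 0.05 there were 7 (17.9%), 5 higher and 2 lower in IL-10+ cells, against 9.17% of all genes. The median log2 difference, IL-10+ minus IL-10-, was 0.21 over the 39 genes and 0.04 over all genes. That offset depends on the scaling: 25 of the 39 differences were positive with the 75th percentile, 28 after quantile normalization and 12 in the deposited table, which is scaled to the median and in which the median of all genes moved to -0.29. With the 75th percentile, 24 of the 39 lay above the median of all genes. The deposited table's scaling moves every gene of a contrast by the same amount, so it could not change that count. For 2 genes (5.13%), Tank and Ikbkb, the 6 IL-10+ arrays did not overlap with the 6 IL-10- arrays, against 0.938% of all genes.

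**Figure D1:**
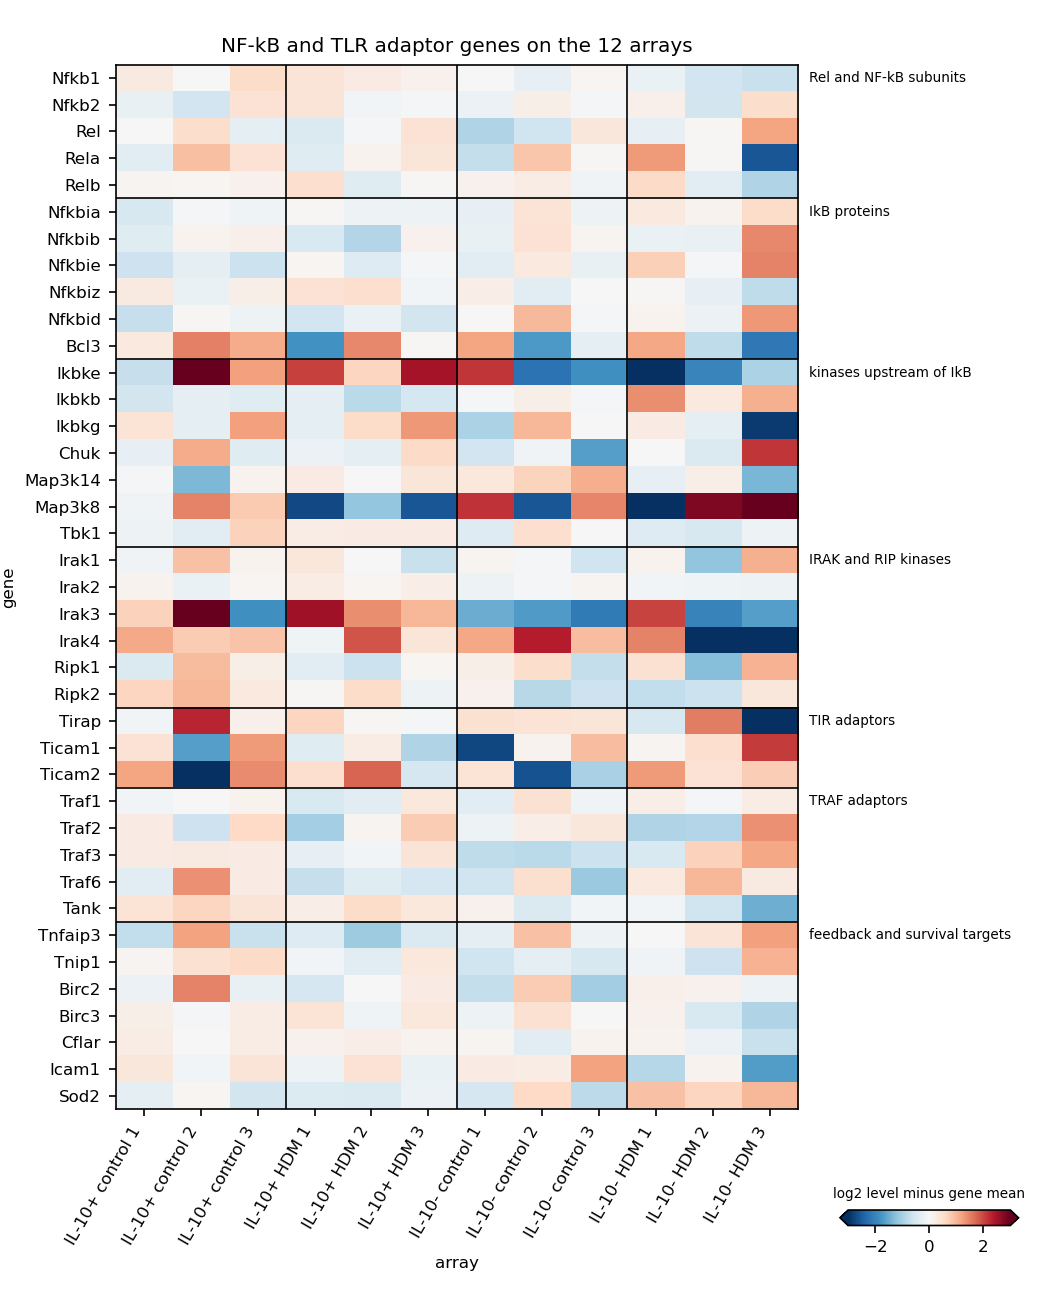
Level of each of the 39 genes (one row per gene, ordered by role) on each of the 12 arrays (columns, 4 groups of 3), as the log2 level minus the gene's mean over the arrays, with colours that saturate at 3 on either side of 0. The strongest colours are in Ikbke, Map3k8, Irak3, Irak4, Tirap and Ticam2, each of which was not well above background on at least 1 array, and single arrays such as IL-10- HDM array 3 differ from their own group in many genes.

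In control mice 0 genes of the 39 were called by limma for the sort (all genes 0.016%), 2 had an unadjusted p under 0.05 (5.13%, all genes 4.06%) and 6 did not overlap (15.4%, all genes 9.46%). In HDM mice 0 were called (all genes 0.168%), 6 had an unadjusted p under 0.05 (15.4%, all genes 13.3%) and 12 did not overlap (30.8%, all genes 22.6%). For HDM against control mice in IL-10+ cells 0 were called (all genes 0.00401%), 0 had an unadjusted p under 0.05 (all genes 2.28%) and 2 did not overlap (5.13%, all genes 9.61%). In IL-10- cells 0 were called for HDM (all genes 0.0481%), 6 had an unadjusted p under 0.05 (15.4%, all genes 9.13%) and 6 did not overlap (15.4%, all genes 11.9%). The interaction, which is the sort contrast in HDM mice minus that in control mice, gave 0 calls (all genes 0.012%) and 3 genes at an unadjusted p under 0.05 (7.69%, all genes 6.46%). The sort contrasts of 15 genes were positive in both kinds of mice, those of 8 were negative in both, and those of 16 differed in sign. With the deposited table's scaling these counts were 5, 6 and 28.

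Among the subunits, which form the DNA-binding dimers, none was called for the sort; 4 of 5 differences were positive, and 2 of 5 with the deposited table's scaling. Nfkb1, which encodes p105 and its product p50, read 5.67, 5.42 and 5.95 on the IL-10+ control arrays, 5.78, 5.65 and 5.54 on IL-10+ HDM, 5.42, 5.16 and 5.45 on IL-10- control, and 5.21, 4.83 and 4.73 on IL-10- HDM. These levels, like all those given below, are log2 signals relative to the 75th percentile of their array. The sorts did not overlap in HDM mice and overlapped narrowly in control mice, where IL-10+ array 2 lay below IL-10- array 3. The sort contrast averaged over both kinds of mice was 0.54 (SE 0.20, adjusted p = 0.451, limma), and 0.64 with slide as a block, but the other Nfkb1 probe gave -0.13. Rela, which encodes the transactivating subunit p65, differed by 0.38 (SE 0.60), Relb by 0.15, Rel by 0.06 and Nfkb2, the precursor of p52, by -0.03, all with an interval that included 0.

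**Figure D2:**
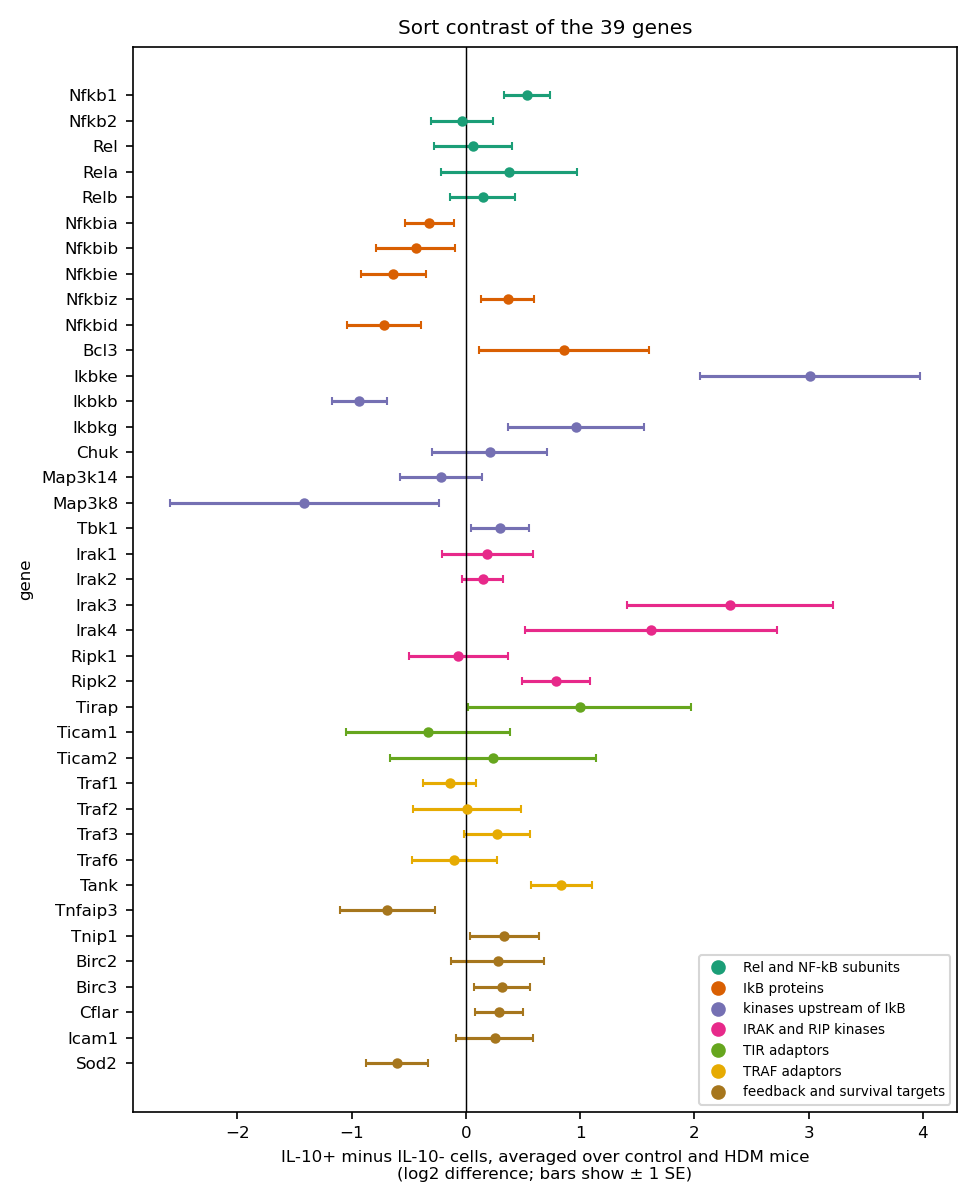
Log2 difference between IL-10+ and IL-10- cells, averaged over control and HDM mice, for each of the 39 genes (points, coloured by role; bars are ± 1 SE; 3 arrays in each of the 4 groups). Ikbkb at -0.93 and Tank at 0.83 have short bars, whereas Ikbke at 3.01 and Irak3 at 2.31 have long ones.

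Of the 6 IkB proteins, 4 were lower in IL-10+ cells in value and 2 higher, with a median of -0.38, and none was called. The 4 were the cytoplasmic inhibitors Nfkbia at -0.32 (SE 0.21), Nfkbib and Nfkbie, and the nuclear regulator Nfkbid, and the split was 4 to 2 under each of the scalings tried. Nfkbie, which encodes IkB epsilon, read 4.60, 4.96 and 4.58 on IL-10+ control, 5.28, 4.83 and 5.18 on IL-10+ HDM, 4.91, 5.52 and 5.00 on IL-10- control, and 5.93, 5.19 and 6.70 on IL-10- HDM. The sorts overlapped in both kinds of mice, and IL-10- HDM array 3 was the highest. Averaged over control and HDM mice the difference was -0.64 (SE 0.28, adjusted p = 0.543, limma), and -0.45 without that array. The probe shares a run of 15 bases with probes of 9 other gene names, as 2.0% of gene probes do with 9 or more, and what this adds to its signal was not tested.

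Nfkbid, which encodes a nuclear IkB, read 0.93, 1.65 and 1.46 on IL-10+ control, 1.06, 1.43 and 1.07 on IL-10+ HDM, 1.62, 2.59 and 1.58 on IL-10- control, and 1.74, 1.44 and 2.93 on IL-10- HDM. The sorts overlapped in control mice and were separated by a narrow gap in HDM mice. On average the sorts differed by -0.71 (SE 0.32, adjusted p = 0.546, limma), with -1.06 when slide was a block and -0.49 without IL-10- HDM array 3. Nfkbib differed by -0.44 (SE 0.35), and its other probes by -0.48 and -0.46. Nfkbiz, an atypical IkB that activates a set of LPS-induced genes, differed by 0.36, and Bcl3, a partner of p50 and p52 dimers, by 0.86 with only 9 arrays well above background.

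**Figure D3:**
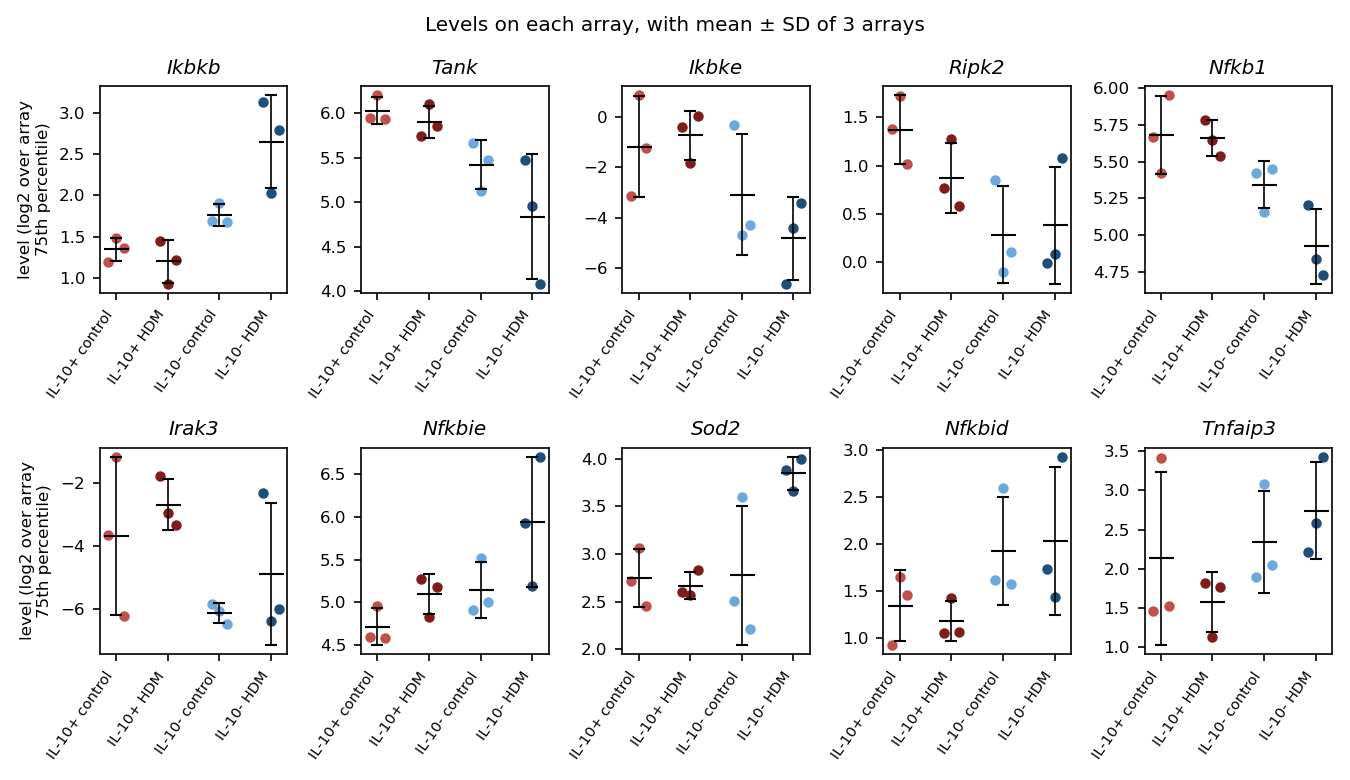
Level of 10 genes (log2 over the array's 75th percentile) on each array, by group; points are single arrays, bars the mean ± SD of 3 arrays. All 6 IL-10+ arrays lie below the IL-10- arrays for Ikbkb and above them for Tank, whereas the IL-10+ and IL-10- arrays of the other 8 genes overlap.

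Of the kinases upstream of IkB, Ikbkb had the smallest p of the 39 genes. Ikbkb, the catalytic IkB kinase of the canonical route, read 1.19, 1.48 and 1.37 on IL-10+ control, 1.45, 0.93 and 1.22 on IL-10+ HDM, 1.69, 1.91 and 1.68 on IL-10- control, and 3.13, 2.03 and 2.79 on IL-10- HDM. All IL-10+ arrays lay below all IL-10- arrays, and all IL-10- HDM arrays lay above all IL-10- control arrays. The averaged difference was -0.93 (SE 0.24, 95% interval -1.46 to -0.40, unadjusted p = 0.00288, adjusted p = 0.202, limma). It was -0.41 in control mice and -1.45 in HDM mice (adjusted p = 0.160). With slide as a block the averaged value was -1.01, within slide 1 the control mice alone gave -0.45, and without IL-10- HDM array 3 it was -0.90. Leaving out each array in turn gave -1.09 to -0.81 with an adjusted p of 0.0894 to 0.461. The contrast between HDM and control mice in IL-10- cells was 0.89 (SE 0.34) and the interaction -1.04 (SE 0.48, adjusted p = 0.757).

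Ikbke, a kinase related to Tbk1 that is induced by inflammatory signals, had a wide spread between arrays. It read -3.15, 0.87 and -1.22 on IL-10+ control, -0.40, -1.81 and 0.06 on IL-10+ HDM, -0.31, -4.67 and -4.29 on IL-10- control, and -6.62, -4.43 and -3.40 on IL-10- HDM. IL-10- control array 1 lay within the IL-10+ range, the HDM groups did not overlap, and 9 of the 12 arrays were well above background, but only 1 of the 3 IL-10- HDM arrays. Averaged over control and HDM mice the difference was 3.01 (SE 0.96, adjusted p = 0.344, limma) and that in HDM mice 4.10 (SE 1.36, adjusted p = 0.286). With slide as a block the averaged value was 1.81, within slide 1 the control mice gave 1.33, and leaving out single arrays moved the HDM value between 3.19 and 4.81. After normexp background correction the averaged value was 1.28 and the HDM value 1.63. The related kinase Tbk1, itself bound by Tank, differed by 0.30 (SE 0.25) on average.

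The averaged differences of the other kinases of this group had 95% intervals that included 0. Chuk, the second catalytic IkB kinase, differed by 0.21 and Ikbkg, the regulatory subunit NEMO, by 0.96 (SE 0.60), for which a second probe gave 0.88. Map3k14, which drives the alternative route after CD40, read 1.18, -0.12 and 1.33 on IL-10+ control, 1.46, 1.19 and 1.59 on IL-10+ HDM, 1.54, 1.87 and 2.31 on IL-10- control, and 0.98, 1.41 and -0.16 on IL-10- HDM. In control mice the IL-10+ arrays lay below the IL-10- arrays, and in IL-10- cells the HDM arrays lay below the control arrays. The difference was -1.11 (SE 0.50, adjusted p = 1.00, limma) for the sort in control mice, 0.61 (SE 0.50) for HDM in IL-10+ cells and 1.78 (SE 0.71, adjusted p = 0.757) for the interaction. Its other probe, well above background on 10 arrays, gave 1.05, -1.67 and -1.40 for these 3, each of the opposite sign.

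Map3k8, the kinase that links TLR4 to ERK activation, read -3.61, -2.02 and -2.72 on IL-10+ control, -6.22, -4.68 and -6.07 on IL-10+ HDM, -1.34, -6.08 and -2.04 on IL-10- control, and -6.54, -0.72 and -0.11 on IL-10- HDM. The IL-10+ HDM arrays were all not well above background and lay below all IL-10+ control arrays, while each IL-10- group held arrays at both ends. For the dim IL-10+ HDM arrays, the higher of the lowest signal well above background and the probe's own signal was taken as their level. By that floor the IL-10+ control mean was 2.26-fold above that of IL-10+ HDM (adjusted p = 1.00 for the difference without the floor, limma). This ratio of means takes no account of the spread between arrays. Over the alternatives tried, the log2 difference, HDM minus control in IL-10+ cells, was -3.36 to -0.64. By the same floor the IL-10- HDM mean was 2.83-fold above that of IL-10+ HDM (adjusted p = 0.422 for the difference without the floor, limma). Of its 3 arrays 2 were well above background. IL-10- HDM array 1, at -6.54, lay below all IL-10+ HDM arrays, so these groups overlapped.

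Among the IRAK and RIP kinases, 5 of 6 differences were positive, with a median of 0.49, and none was called. With the deposited table's scaling the split was 3 to 3. Relative to the median of all genes 5 lay above it, a count that this scaling cannot change. Ripk2, which couples NOD receptors to the IkB kinases, read 1.38, 1.72 and 1.01 on IL-10+ control, 0.77, 1.28 and 0.58 on IL-10+ HDM, 0.85, -0.10 and 0.10 on IL-10- control, and -0.01, 0.09 and 1.08 on IL-10- HDM. The control groups did not overlap, and in HDM mice only IL-10- array 3 lay within the IL-10+ range. On average the sorts differed by 0.79 (SE 0.29, adjusted p = 0.446, limma), 0.61 with slide as a block and 0.96 without IL-10- HDM array 3. In control mice it was 1.09 (SE 0.42, adjusted p = 1.00), and 1.00 within slide 1. The contrast between HDM and control mice in IL-10+ cells was -0.50 (SE 0.42).

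Irak3, also called IRAK-M, an inhibitor of TLR signalling, was close to background. It read -3.66, -1.20 and -6.19 on IL-10+ control, -1.80, -2.94 and -3.34 on IL-10+ HDM, -5.83, -6.05 and -6.46 on IL-10- control, and -2.31, -6.36 and -5.99 on IL-10- HDM. Only 5 arrays were well above background and none of them was an IL-10- control array. The sort contrast averaged over both kinds of mice was 2.31 (SE 0.90, adjusted p = 0.469, limma), with most signals near background. It was 0.54 after normexp background correction, 1.42 without both arrays of lowest detection, and 1.69 to 2.95 on leaving out single arrays. With the floor used for Map3k8 put in for the IL-10- arrays, the IL-10+ mean in control mice was 1.31-fold higher. Only 1 of the 3 IL-10+ control arrays was well above background. IL-10+ control array 3, at -6.19, lay below IL-10- control arrays 1 and 2, so these groups overlapped.

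Irak4, the first kinase recruited by the adaptor MyD88, read 0.99, 0.61 and 0.70 on IL-10+ control, -0.28, 1.74 and 0.20 on IL-10+ HDM, 1.00, 2.20 and 0.77 on IL-10- control, and 1.33, -4.85 and -6.22 on IL-10- HDM. The 2 low arrays were not well above background, whereas IL-10- HDM array 1 was as high as the control arrays. The contrast between HDM and control mice in IL-10- cells was -4.57 (SE 1.56, adjusted p = 0.460, limma), and -3.08 without array 3. Without array 1 it was -6.86 with an adjusted p of 0.00575, the only setting in which a gene of the list was called. The other Irak4 probe, well above background on all 12 arrays, gave 1.77 for the same contrast. For the sort averaged the 2 probes gave 1.62 and -1.15. Irak2, a kinase needed for sustained TLR responses, read between 7.67 and 8.08 on all arrays, a range of 0.41, the narrowest of the list. Its probe shares a 15-base run with probes of 5 other gene names, as 3.9% of gene probes do with 5 or more, and the other Irak2 probe gave 0.72 for the sort averaged against 0.15. That other Irak2 probe, well above background on all 12 arrays, had a mean level of 1.20, against 7.86 for the probe used. Irak1 differed by 0.19 and Ripk1, the kinase of the TNF receptor complex, by -0.07.

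The TIR adaptors, which connect TLRs to the kinases above, varied widely between arrays and none was called. Tirap, which brings MyD88 to TLR4, was well above background on 11 arrays, and read -5.00 on IL-10- HDM array 3 and -0.23 to 2.54 on the others. Its averaged difference was 0.99 (SE 0.97). Ticam1, which encodes TRIF, differed by -0.33 (SE 0.72) and ranged over 4.83 log2 units. Ticam2, the bridging adaptor between TLR4 and TRIF, was well above background on 10 arrays and differed by 0.24 (SE 0.90), and its IL-10- HDM arrays at -1.29, -2.14 and -1.83 lay above its IL-10- control arrays at -2.16, -5.18 and -3.56.

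Of the TRAF adaptors and their partner Tank, Tank separated the sorts. Tank, which binds TRAF proteins, Tbk1 and Ikbke and restrains NF-kB activation, read 5.95, 6.20 and 5.94 on IL-10+ control, 5.74, 6.10 and 5.86 on IL-10+ HDM, 5.67, 5.13 and 5.48 on IL-10- control, and 5.47, 4.96 and 4.09 on IL-10- HDM. All IL-10+ arrays lay above all IL-10- arrays, with 5.74 against 5.67 for the closest ones. The averaged difference was 0.83 (SE 0.27, 95% interval 0.24 to 1.42, unadjusted p = 0.0104, adjusted p = 0.344, limma), and it was 1.06 in HDM mice (adjusted p = 0.310) and 0.61 in control mice. It was 0.89 with slide as a block, 0.63 within slide 1 in control mice, 0.65 without IL-10- HDM array 3, where the HDM value was 0.69, and 0.50 with the deposited table's scaling, where the HDM value was 0.27. The second Tank probe gave 1.34 averaged, 2.11 in HDM mice and 0.58 in control mice. Both probes are shown, since they bind different stretches of the transcript and gave the same sign in both kinds of mice. On mm9, per the files, the used probe lies at chr2:61487826-61487885 and the second within chr2:61465047-61465812, an interval longer than the probe, which has 60 bases.
Tank used probe: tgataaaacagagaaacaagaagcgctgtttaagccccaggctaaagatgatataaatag
Tank second probe: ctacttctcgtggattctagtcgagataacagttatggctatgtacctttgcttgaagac

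Traf3, which restrains Map3k14 until CD40 is engaged, read 1.43, 1.44 and 1.42 on IL-10+ control, 0.93, 1.10 and 1.56 on IL-10+ HDM, 0.41, 0.38 and 0.54 on IL-10- control, and 0.72, 1.87 and 2.34 on IL-10- HDM. In control mice the sorts did not overlap, and in HDM mice they did. The SD of the 3 arrays was 0.01 (IL-10+) and 0.09 (IL-10-) in control mice, but 0.32 and 0.84 in HDM mice. The IL-10- HDM arrays all lay above the IL-10- control arrays. The sort contrast in control mice was 0.99 (SE 0.41, adjusted p = 1.00, limma), and 1.04 within slide 1. HDM in IL-10- cells gave 1.20 (SE 0.41, adjusted p = 0.460), or 0.85 without IL-10- HDM array 3. The interaction was -1.44 (SE 0.58, adjusted p = 0.757), or -1.09 without that array.

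Traf6, the ubiquitin ligase downstream of the IRAK kinases and of CD40, read 2.04, 3.76 and 2.63 on IL-10+ control, 1.69, 2.02 and 1.88 on IL-10+ HDM, 1.78, 2.87 and 1.27 on IL-10- control, and 2.67, 3.38 and 2.64 on IL-10- HDM. The IL-10+ HDM arrays lay below the IL-10+ control arrays and below the IL-10- HDM arrays. The contrast between HDM and control mice in IL-10+ cells was -0.95 (SE 0.52, adjusted p = 1.00, limma) and the interaction -1.87 (SE 0.74, unadjusted p = 0.0299, adjusted p = 0.757). The 2 other Traf6 probes, above background on 8 and 9 arrays, gave 1.89 and 1.57 for the first and 2.29 and 2.22 for the interaction. Traf1 varied by 0.92 over all arrays and differed by -0.14 between the sorts, and Traf2, which joins CD40 to the cellular inhibitors of apoptosis, by 0.01 (SE 0.47).

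**Figure D4:**
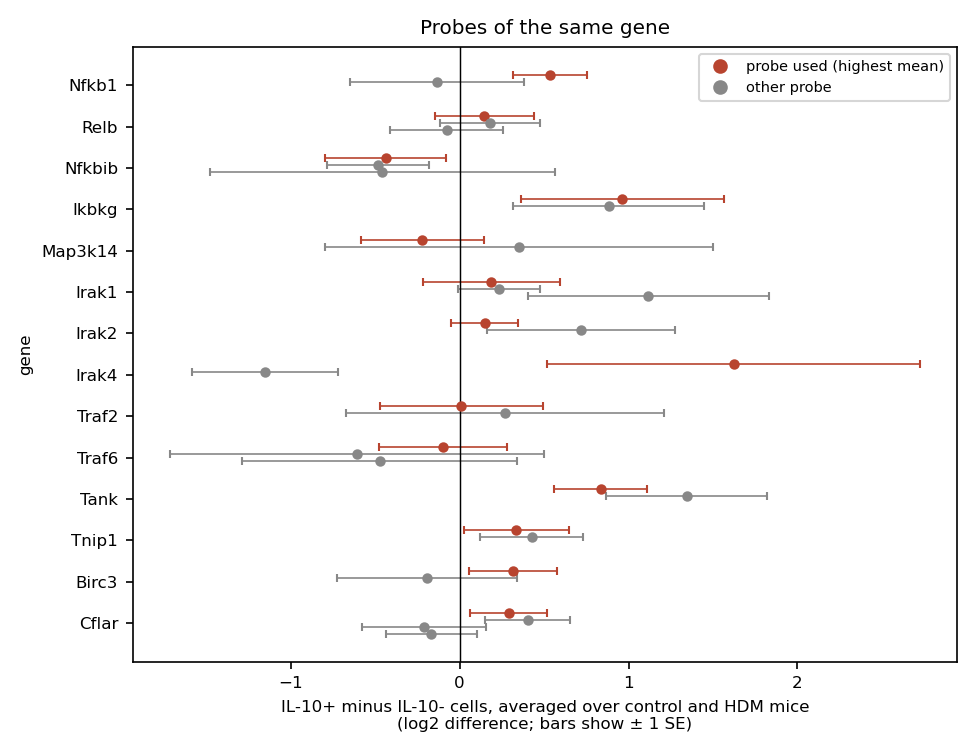
Log2 difference between IL-10+ and IL-10- cells, averaged over control and HDM mice, for each probe of the 14 genes with several probes (points; bars are ± 1 SE; red, the probe used; grey, the others). All probes had the same sign for 8 of the 14 genes; the Irak4 probes lie at 1.62 and -1.15 and the Tank probes at 0.83 and 1.34.

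Feedback regulators and survival genes induced by NF-kB made up the last group, of which 5 of 7 differences were positive (median 0.28) and none was called. With the deposited table's scaling 1 of 7 was positive. Relative to the median of all genes 5 lay above it, a count that this scaling cannot change. Tnfaip3, which encodes the ubiquitin-editing enzyme A20, read 1.47, 3.41 and 1.52 on IL-10+ control, 1.82, 1.13 and 1.77 on IL-10+ HDM, 1.89, 3.08 and 2.04 on IL-10- control, and 2.22, 2.58 and 3.43 on IL-10- HDM. The HDM groups did not overlap, and the control groups did because IL-10+ control array 2 was far above its group. On average the sorts differed by -0.69 (SE 0.42, adjusted p = 0.658, limma), or -0.52 without IL-10- HDM array 3.

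Sod2, the mitochondrial superoxide dismutase, read 2.72, 3.06 and 2.45 on IL-10+ control, 2.60, 2.57 and 2.84 on IL-10+ HDM, 2.51, 3.60 and 2.21 on IL-10- control, and 3.88, 3.66 and 4.0 on IL-10- HDM. The IL-10- HDM arrays lay above all others, and the other 3 groups overlapped. The sort contrast was -1.18 in HDM mice (SE 0.39, adjusted p = 0.281, limma) and -0.03 in control mice, with -0.60 averaged (adjusted p = 0.545). HDM in IL-10- cells gave 1.07 (SE 0.39, adjusted p = 0.487), and the interaction was -1.15 (SE 0.54, unadjusted p = 0.0609). With slide as a block these became -2.02, 1.63 and -1.71 for HDM mice, IL-10- cells and the interaction. All IL-10- HDM arrays lay on slide 2, and the IL-10- control array of that slide, array 3, was the lowest of all 12 at 2.21. That is 1 array, and sort and slide cannot be told apart in HDM mice.

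Icam1, an adhesion molecule induced by NF-kB, read 2.94, 2.52 and 2.99 on IL-10+ control, 2.46, 3.04 and 2.40 on IL-10+ HDM, 2.84, 2.82 and 3.80 on IL-10- control, and 1.76, 2.71 and 0.93 on IL-10- HDM. All IL-10- HDM arrays lay below the IL-10- control arrays. The contrast between HDM and control mice in IL-10- cells was -1.35 (SE 0.48, adjusted p = 0.482, limma), -2.0 with slide as a block and -0.92 without IL-10- HDM array 3. Tnip1, a partner of A20, read 2.83, 3.22 and 3.33 on IL-10+ control, 2.68, 2.43 and 3.07 on IL-10+ HDM, 2.16, 2.50 and 2.29 on IL-10- control, and 2.66, 2.14 and 3.81 on IL-10- HDM. Its control groups did not overlap and its HDM groups did. The sort contrast in control mice was 0.81 (SE 0.43, adjusted p = 1.00, limma), 0.80 within slide 1, and its second probe gave 1.08. Of the survival genes, Birc2 differed by 0.28, Birc3 by 0.31 (SE 0.25) and Cflar, an inhibitor of caspase-8, by 0.29 (SE 0.21), with a range of 0.88 over all arrays. The remaining Birc3 probe gave -0.19, and the other Cflar probes gave 0.40, -0.21 and -0.17.

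**Figure D5:**
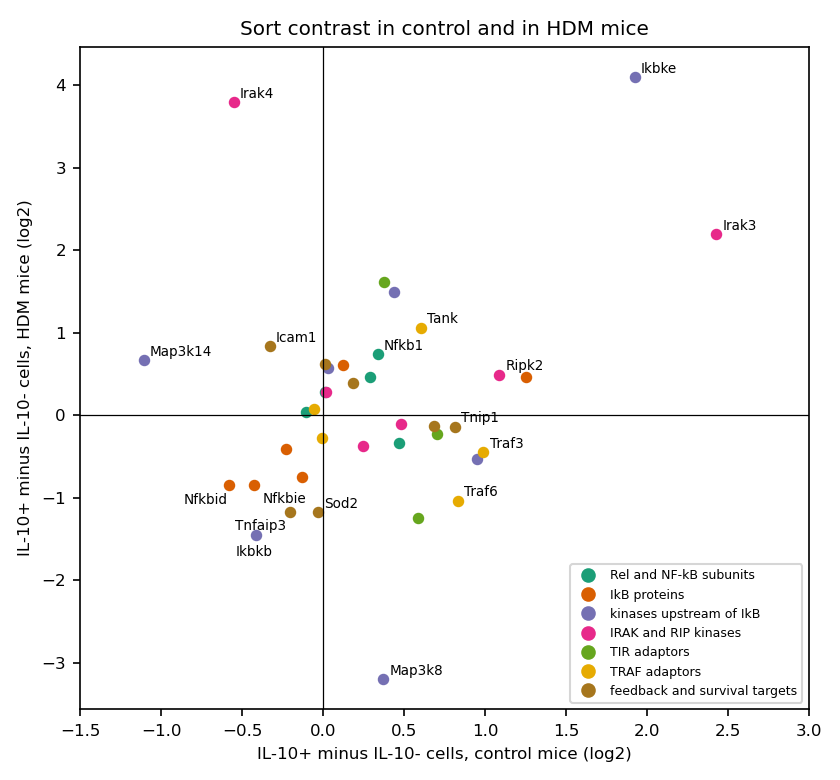
Log2 difference between IL-10+ and IL-10- cells in control mice (horizontal axis) and in HDM mice (vertical axis) for each of the 39 genes (points, coloured by role; labels mark the genes named by rule; means of 3 arrays per group). Tank, Nfkb1 and Ripk2 lie on the positive side and Ikbkb, Nfkbie, Nfkbid and Tnfaip3 on the negative side of both axes, whereas Traf3, Traf6 and Tnip1 lie on the positive side in control mice and the negative side in HDM mice.

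The sort contrasts in control and in HDM mice rest on separate arrays, but none of the differences between them passed the test, with a smallest adjusted p of 0.757 over the 39 genes. Over all arrays the 39 genes varied by a median of 2.26 log2 units between their lowest and highest array, against 2.93 for all genes tested. A range under 1 was seen for 3 of them (7.69%), Cflar, Irak2 and Traf1, against 6.67% of all genes. The 39 genes were also brighter, with a median level of 1.47 to 2.69 per array, against -1.40 to -0.72 for all genes tested. The part of brightness in these ranges was not tested.

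Other genes of the pathway were drawn from a list of 69 receptors, adaptors, ubiquitin editors and textbook targets, of which 60 were measured and none of the 60 was called in any of the 6 comparisons by limma. The shares called among all genes are those given above for the 39. For the sort averaged, 5 had an unadjusted p under 0.05 on the higher and 2 on the lower side (7 of 60, all genes 9.17%), with a median of 0.15. Nfkbil1, an IkB-like gene, read -1.16, -2.44 and -0.80 on IL-10+ control, -0.05, 0.58 and 1.79 on IL-10+ HDM, -1.91, -2.23 and -0.38 on IL-10- control, and -3.08, -3.54 and -1.33 on IL-10- HDM. The IL-10+ HDM arrays lay above all others, and the sorts overlapped in control mice. The difference was 1.73 averaged (SE 0.54, adjusted p = 0.326, limma) and 3.42 in HDM mice (SE 0.76, adjusted p = 0.138). Tnfrsf13b, which encodes the BAFF and APRIL receptor TACI, differed by 0.94 on average (SE 0.31, adjusted p = 0.373). Ccl3, a chemokine gene induced by NF-kB, differed by -0.74 (SE 0.24, adjusted p = 0.357) and the growth regulator Myc by -0.69 (SE 0.25, adjusted p = 0.428).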

How the data were processed

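Messenger RNA was isolated with beads, its cDNA amplified by PCR (SuperAmp) and labelled with Cy3, per the labels' protocols. The arrays were of Agilent design 028005 (build mm9) and read with Feature Extraction 10.7.3.1, per the file headers. The deposited scanner files hold the processed signal, an intensity that the scanner software background-subtracted and detrended but did not scale between arrays, and the raw spot and background intensity. They also hold flags per spot, which are other values than intensities, per the file headers. Values in the deposited table are each a ratio of the processed signal to its array's median, as recomputing them showed (largest deviation 0.00077%).

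Probes well above background on at least 3 of 12 arrays were kept, 37643 in all, and no spot was saturated. Log2 processed signals, from which each array's own 75th percentile was subtracted, were fitted with limma 3.58.1 (R 4.3.3), with 1 mean per group over all 12 arrays, 8 residual degrees of freedom and Benjamini-Hochberg adjustment over 24958 genes. The filter can keep a gene because it is high in 1 group. The number of arrays limits the precision. Per-array values are given for the 10 genes with the smallest p in the averaged sort contrast and the 4 with the smallest in each other comparison. For the pathway list the 4 with the smallest p are named. Alternatives were normexp background correction (offset 50), quantile normalization, other filters and probe rules, the deposited table, slide and replicate blocks, another prior variance, and leaving out each array. The fit was tested on simulated data. The genes and lists were chosen with earlier results of these data known.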

Additional observations from a re-analysis of the deposited data

How the results depend on the processing

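Counts of called genes among the 39 stayed at 0 under 141 combinations of comparison and alternative and moved under 3. The exception was leaving out IL-10- HDM array 1, which called Irak4 in the averaged sort contrast, in HDM mice and in IL-10- cells for HDM, so that the range over single omissions was 0 to 1 for these 3 and 0 for the other comparisons. With a replicate block, 0 of the 39 were called in each comparison and Ikbkb was -0.93 (adjusted p = 0.317, limma). Same-numbered arrays of different groups correlated at a median of -0.01. Those of the 2 sorts within a kind of mouse correlated at 0.0191 to 0.149, positive in 6 of 6 pairs and over 0.1 in 2, against a median of -0.035 for different numbers, so whether numbers pair the sorts is not settled. A replicate block within each kind of mouse, added after seeing the data, called 0 of the 39 and 0 of all genes in the sort contrasts and the interaction, with Ikbkb at an adjusted p of 0.308 (limma). The averaged contrast called 67 of all genes, but 0 with slide as a block, 123 with slide as a random block, 36 with a replicate block, 26 with the deposited table and 31 to 139 without single arrays; it moved by over 1.5 times without IL-10+ control array 3 (31), IL-10+ HDM array 2 (33), IL-10- HDM array 1 (139) and IL-10- HDM array 2, whose count lay within that range. The cause of these moves was not tested. In the fit with slide as a random block, the estimated correlation within slides was -0.05.

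Of the differences named by rule, each in the comparison that named it, signs reversed only with the choice of probe or of filter. Over all 39, 33 kept the sign of the averaged sort contrast with slide as a block, 34 after quantile normalization and 26 with the deposited table, and with slide as a block Birc2 was -0.44, Chuk -0.67, Ticam1 1.15, Irak1 -0.22, Relb -0.05 and Map3k14 0.18. With the mean of a gene's probes, HDM in IL-10+ cells gave 0.84 for Traf6 and -0.53 for Map3k14, and the interaction gave 0.88 for Traf6. For HDM in IL-10- cells, Irak4 was 1.77 with its other probe or with a filter for all arrays. Other probes gave -0.13 for Nfkb1 (sort averaged), for Map3k14 1.05 (sort in control mice), -1.67 (HDM in IL-10+ cells) and -1.40 (interaction), and for Traf6 1.89 and 1.57 (HDM in IL-10+ cells) and 2.29 and 2.22 (interaction).

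With the deposited table the median over the 39 genes was -0.76 for the sort in HDM mice, 0.75 for HDM in IL-10- cells and -1.20 for the interaction, where the median of all genes moved to -0.64, 0.60 and -0.78. Without IL-10- HDM array 2 the first was -0.26. Without both arrays of lowest detection, an omission chosen after seeing the data, 0 of the 39 were called in each comparison. The interaction median was then 0.02, against -0.27 in the main fit, and 27 of the 39 genes kept their sign. For HDM in IL-10- cells 27 kept it, and for the sort in HDM mice 30 did. An unadjusted p under 0.05 (limma) remained for 1 gene for HDM in IL-10- cells and for 0 in the interaction. Signals near background limit Ikbke, Map3k8, Irak3, Bcl3 and Ticam2.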
